A study of Mus musculus with 30 samples.

Results

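Motor proteins and the adaptors and small GTPases that attach organelles to them were followed at the RNA level in extracts of mouse sciatic nerve. The members were all listed transcripts of the kinesins (Kif genes, with Kif1bp, a kinesin-binding protein), kinesin light chains (Klc), cytoplasmic dynein chains (Dync and Dynl), dynactin subunits (Dctn), the mitochondrial motor adaptors Rhot1, Rhot2, Trak1 and Trak2, and the numbered Rab GTPases, chosen by gene symbol. They were 160 transcripts of 107 genes, out of 20423 transcripts of 14462 genes in the 4 main tables. By annotated class, 118 were protein coding, 33 were retained-intron transcripts, 8 were processed transcripts and 1 was annotated for nonsense-mediated decay. Of them, 121 were listed for input, 115 and 120 for nucleolin in naive and injured nerve, and 127 for PTBP1, with 83 in all 4.

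In neurons, kinesins carry vesicles, mitochondria and messenger RNA along microtubules toward the axon end, and cytoplasmic dynein with its cofactor dynactin carries cargo back toward the cell body. Rab GTPases give each organelle its identity and recruit motors to it, and the Rhot (Miro) and Trak proteins link mitochondria to kinesin and dynein. Another set of kinesins builds and moves the mitotic spindle and works in dividing cells. Nucleolin and PTBP1 are RNA-binding proteins. PTBP1, the polypyrimidine tract binding protein, recognises pyrimidine-rich stretches of RNA.

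The study sequenced RNA from 30 libraries in 10 groups of 3, each library made from 10 pooled sciatic nerves. Libraries of 5 kinds were made from naive nerve and from nerve collected 7 days after a crush at mid-thigh: input RNA, RNA precipitated with an antibody to nucleolin (nucleolin IP), the same with the antibody first saturated with its blocking peptide (nucleolin blocked IP), and the matching PTBP1 IP and PTBP1 blocked IP. No genotype, strain, sex or age is given in the labels used here, and no agent beyond the crush itself. The nerves were ground and spun and the pellet was discarded, so the labels call the material axoplasm, although nothing removed the other cells of the nerve. The design text calls the repeats independent and biological, and p-values measure the spread between these pools.

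Library totals ran from 7536033 counts (injured input 1) to 22919174 (naive PTBP1 blocked IP 1), and no pair of repeats agreed within counting noise. In the precipitates, library 3 of each group stood apart: 0.0821% to 3.10% of the listed transcripts had no count in the IP libraries numbered 3, against up to 19.3% in the other IP libraries, and 16.9% in injured PTBP1 blocked IP 3 against 28.7% in injured PTBP1 blocked IP 2. The label was checked with marker genes. Levels are given as CPM, counts scaled to each library's total after TMM scaling has adjusted that total, not to the raw total. In naive input the summed level of 9 tested neuron and axon markers was 168 to 227 CPM. That of 9 tested Schwann cell markers was 28010 to 51400 CPM. After crush the Schwann cell sum was 4649 to 7334 CPM, 14 tested macrophage markers summed to 10110 to 12590 CPM against 2093 to 2553 CPM in naive input, and 11 tested markers of dividing cells to 862 to 1196 CPM against 74.5 to 91.8 CPM. Adipocyte markers (5 tested) summed to 3422 to 4020 CPM in naive and 428 to 522 CPM in injured input. Skeletal muscle markers (4 tested) summed to 623 to 1057 CPM in naive and 23.65 to 109 CPM in injured input. Fibroblast markers (5 tested) had 18370 to 24570 CPM against 15320 to 18350 CPM, and endothelial markers (5 tested) 289.6 to 433.3 CPM against 289 to 435.5 CPM. The part of these shifts in the results below was not tested, except where a value is given. In bulk RNA, fewer cells of a type and less RNA per cell cannot be told apart.

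Levels between genes were compared as CPM per kilobase of transcript (mean ± SD, n = 3, naive input). Rab2a, a GTPase of traffic between the endoplasmic reticulum and the Golgi, ranked first of 118 members at 445 ± 10.8 CPM per kb. The dynein light chain Dynlt3 stood at 323 ± 24.3 CPM per kb and the light chain Dynll1 at 124 ± 19 CPM per kb, and the dynactin subunit Dctn2 at 112 ± 26.9 CPM per kb, within the spread of Dynll1. Kif5b, the broadly expressed kinesin-1 heavy chain, ranked first among kinesins at 94.5 ± 4.62 CPM per kb. Its neuronal relatives Kif5c and Kif5a had 4.69 ± 2.21 and 1.98 ± 0.140 CPM per kb. Kif3a, a subunit of kinesin-2, had 18.9 ± 3.22 CPM per kb, and Dync1h1, the dynein heavy chain, 14.7 ± 3.58 CPM per kb, which overlapped. Among the mitochondrial adaptors Trak2 (21.9 ± 4.04 CPM per kb) and Trak1 (12.7 ± 1.54 CPM per kb) were above Rhot2 (4.73 ± 0.959 CPM per kb).

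The first comparison asked how the abundance of each transcript in input differed between injured and naive nerve. Of 12 mitotic kinesins 10 rose, and of 9 dynein light chain transcripts 6 fell, while the heavy and intermediate chains of dynein and dynactin mostly did not pass the test. Among endosomal and lysosomal Rabs 3 rose and 3 fell, and among Golgi, endoplasmic reticulum and secretory Rabs 1 rose and 6 fell. Of 118 members tested, 41 passed (21 higher, 20 lower; edgeR quasi-likelihood test, Benjamini-Hochberg adjusted p under 0.05 over all transcripts). That is 34.7%, beside a background of 27.8% of 14095 transcripts (14.5% higher and 13.4% lower). The median log2 fold change was -0.06 over the members and 0.00 over all transcripts tested. Every transcript of the deposited input table has at least 5 counts in injured inputs 2 and 3, so members close to 0 after injury were not listed, and the counts describe the listed members that passed the filter on low counts.

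**Figure D1:**
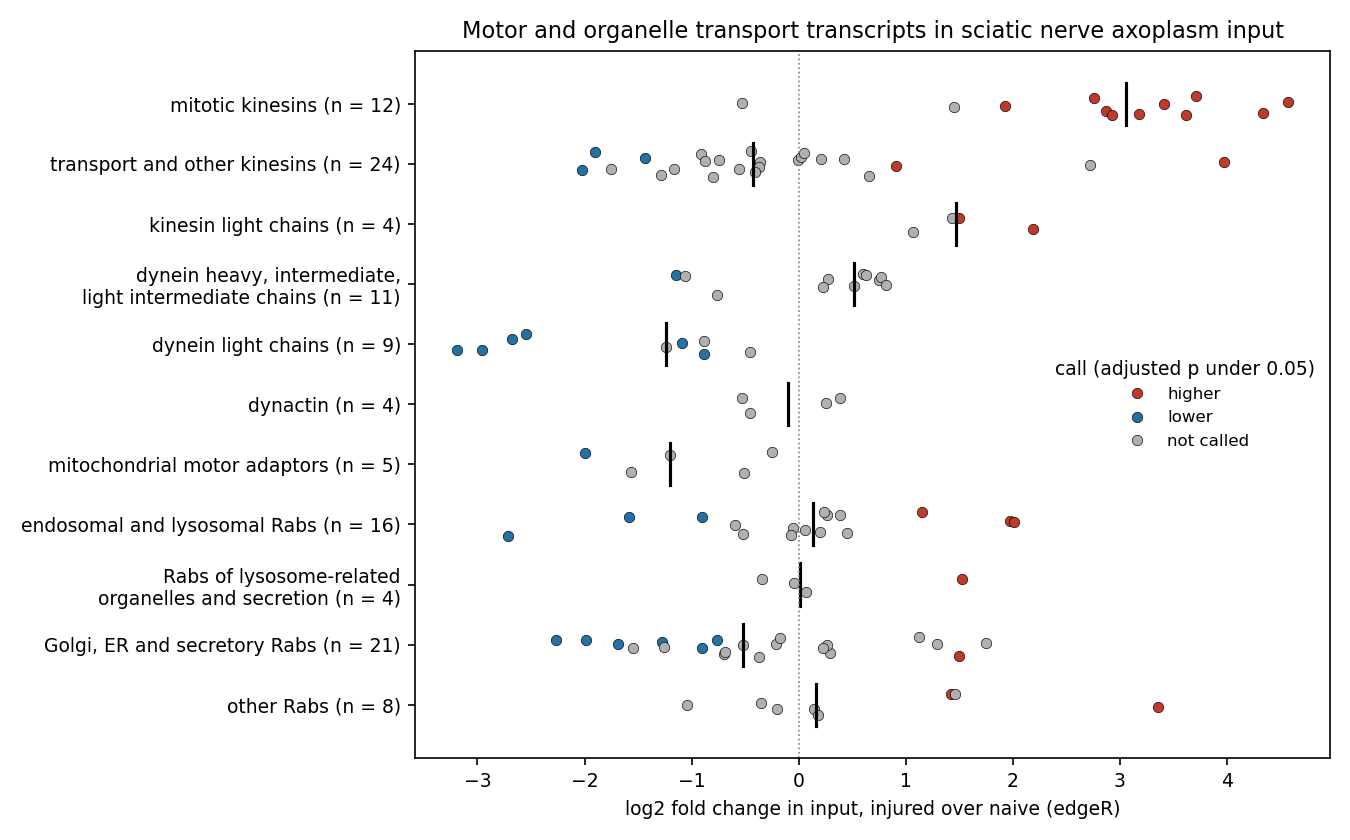
Log2 fold change of each tested member in input, injured over naive nerve, from edgeR (x axis), by role (y axis, with the number of transcripts); each point is a transcript, colour gives the call and the black bar is the median of the role. The mitotic kinesins sit to the right with 10 of 12 called higher, and all 9 dynein light chain transcripts lie below 0.

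Of 12 mitotic kinesins tested, 10 rose and 0 fell, with a median log2 fold change of 3.05. Kif18b, a microtubule plus-end kinesin of the spindle, had 0.771, 1.83 and 0.102 CPM in naive inputs 1 to 3 and 17.8, 26.3 and 20.7 CPM in injured inputs 1 to 3. The groups did not overlap, and the log2 fold change was 4.57 (SE 0.72, adjusted p = 0.000659, edgeR). Kif2c, which takes apart microtubules at centromeres, went from 1.8, 0.157 and 0.563 CPM to 16.8, 15.3 and 18.2 CPM (log2 4.34, SE 0.71, adjusted p = 0.000831, edgeR). Every injured library was above every naive one for both genes. Kif15, a spindle kinesin that backs up Kif11, had 2.18, 2.77 and 1.54 CPM in naive and 27.4, 32.6 and 25 CPM in injured input (log2 3.71, SE 0.41, adjusted p = 5.27e-05, edgeR). Kif11, the motor that pushes spindle poles apart, had 1.61, 5.54 and 2.51 CPM against 32.6, 45.5 and 40.6 CPM (log2 3.61, SE 0.47, adjusted p = 0.000164). The naive and injured libraries were again apart.

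Kif23, the central spindle motor of cell division, had 1.99, 3.55 and 4.4 CPM in naive and 23.2, 48.1 and 34.5 CPM in injured input (log2 3.41, SE 0.43, adjusted p = 0.000153, edgeR). Kif20b, a kinesin of the last step of cell division, had 7.58, 3.81 and 4.81 CPM against 58.4, 33 and 32.3 CPM (log2 2.93, SE 0.40, adjusted p = 0.000252). Neither gene's groups overlapped. The chromosome-arm kinesins Kif4 (log2 2.75, adjusted p = 0.00168) and Kif22 (log2 1.93, adjusted p = 0.00722) rose, as did Kif14, a kinesin of cell division (log2 2.87, adjusted p = 0.0235), and Kifc5b, a minus-end motor with near-identical copies in the genome whose count is therefore uncertain (log2 3.18, adjusted p = 0.00504). Leaving out any one of injured inputs 2 and 3 or naive inputs 1 and 2 ended the call for Kif14, and scaling to library totals that for Kif22 (log2 1.56, adjusted p = 0.0789). Exons of Kif4 share 16.7% of their bases with Pdzd11. Kif18a and Kif24 did not pass. Kif18a, which aligns chromosomes, had 2.50, 3.03 and 3.12 CPM against 4.45, 9.44 and 9.56 CPM (log2 1.45, SE 0.51, adjusted p = 0.052, edgeR), with groups that did not overlap. Kif24, a kinesin of centrioles that restrains cilium formation, had 3.98, 2.09 and 2.41 CPM against 0, 2.18 and 3.25 CPM (log2 -0.53, adjusted p = 0.676), and its groups overlapped. The markers of dividing cells moved with this role: all 11 tested were higher in injured input, with a median log2 fold change of 4.10. Whether those cells account for the kinesin counts was not tested.

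**Figure D2:**
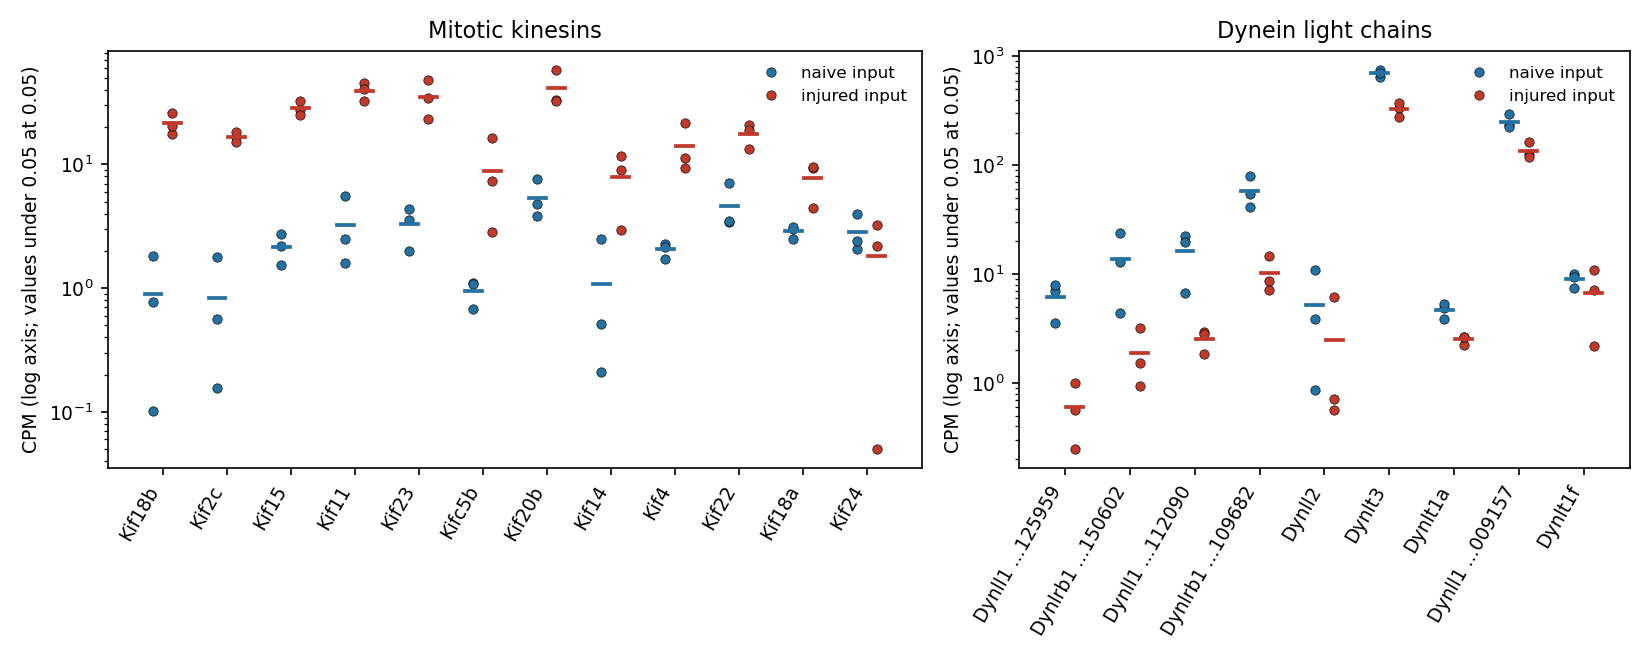
CPM (y axis, log scale, values under 0.05 drawn at 0.05) of the mitotic kinesins (left) and dynein light chains (right) in the 3 naive and 3 injured input libraries; points are libraries, bars are means, and numbers after a symbol are the last 6 digits of its transcript. For Kif18b, Kif2c, Kif15, Kif11, Kif23 and Kif20b every injured library is above every naive one, and for Dynlt3 and the Dynlrb1 and Dynll1 transcripts every injured library is below.

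Because these kinesins moved together, their promoters were read. Genes of late cell cycle often carry the cell cycle homology region (TTTGAA or TTTAAA) near the start site, next to CCAAT boxes. In the RefSeq promoter table (GRCm38.p6, 250 bases before to 50 after the start), TTTGAA on either strand was in 10 of 12 mitotic kinesin promoters (83.3%) and in 17.9% of all 32851 promoters. CCAAT was in 8 of 12 (66.7%, against 37.4%), and CCAAT together with TTTGAA or TTTAAA in 7 of 12 (58.3%, against 10.7%). TTTAAA was in 2 of 12 (16.7%, against 13.2%), and the E-box CACGTG in 0 of 12 (against 7.15%). The 16 promoters of 13 other kinesin genes among the members held TTTGAA in 2 (12.5%) and CCAAT in 6 (37.5%). The 2 mitotic kinesins without TTTGAA were Kif18a and Kif24. Neither was called in input, but Kif18a missed the threshold narrowly with a positive value, and a link between motif and call was not tested. A match is a string of letters and was not tested as a binding site.

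The stretch from 120 bases before to 30 bases after the start is printed for 7 of the promoters that hold TTTGAA there and for Kif18a, which does not, 5′ to 3′ on the gene's strand. Capitals mark TTTGAA or its reverse complement TTCAAA, and CCAAT or its reverse complement ATTGG.
Kif18b chr11:102925095-102925244, minus strand: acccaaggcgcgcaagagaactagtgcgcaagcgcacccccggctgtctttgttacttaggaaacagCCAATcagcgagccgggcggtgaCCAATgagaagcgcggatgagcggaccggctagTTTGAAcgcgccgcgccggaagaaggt
Kif15 chr9:122950961-122951110, plus strand: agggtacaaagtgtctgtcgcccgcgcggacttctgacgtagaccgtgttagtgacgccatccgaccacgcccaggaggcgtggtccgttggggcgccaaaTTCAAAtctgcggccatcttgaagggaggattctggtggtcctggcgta
Kif11 chr19:37376262-37376411, plus strand: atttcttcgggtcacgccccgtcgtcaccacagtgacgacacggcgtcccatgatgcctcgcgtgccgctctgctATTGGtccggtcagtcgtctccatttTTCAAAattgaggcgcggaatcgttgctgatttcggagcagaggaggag
Kif23 chr9:61946770-61946919, minus strand: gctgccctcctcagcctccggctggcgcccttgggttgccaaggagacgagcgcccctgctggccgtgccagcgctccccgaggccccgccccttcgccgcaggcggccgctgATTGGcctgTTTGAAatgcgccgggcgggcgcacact
Kif20b chr19:34922238-34922387, plus strand: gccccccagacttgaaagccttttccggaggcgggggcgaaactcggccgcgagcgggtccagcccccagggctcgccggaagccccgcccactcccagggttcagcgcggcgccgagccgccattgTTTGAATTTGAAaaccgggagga
Kif22 chr7:127042391-127042540, minus strand: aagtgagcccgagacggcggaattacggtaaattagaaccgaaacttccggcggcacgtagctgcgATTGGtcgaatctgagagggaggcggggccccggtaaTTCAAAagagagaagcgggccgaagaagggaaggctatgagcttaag
Kif4 chrX:100625945-100626094, plus strand: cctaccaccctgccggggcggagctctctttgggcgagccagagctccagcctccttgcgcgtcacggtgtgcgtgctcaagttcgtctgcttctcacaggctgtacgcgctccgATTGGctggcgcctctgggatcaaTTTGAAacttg
Kif18a chr2:109280618-109280767, plus strand: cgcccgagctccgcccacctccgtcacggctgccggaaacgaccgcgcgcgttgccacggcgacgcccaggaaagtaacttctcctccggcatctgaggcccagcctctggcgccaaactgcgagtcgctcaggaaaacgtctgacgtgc
Counted from the start site as position 0, TTTGAA began at -19 in both Kif15 and Kif11 and at -17 in Kif22, and at 2, 3 and 19 in Kif23, Kif18b and Kif4. In Kif20b it stood at 7 and again at 13, as 1 tandem pair. A CCAAT box began at -45 in Kif11, at -54 in Kif22, at -53 and -30 in Kif18b, at -7 in Kif23 and at -5 in Kif4. Kif15, Kif20b and Kif18a had none in this stretch. In called mitotic kinesins not printed, TTTGAA began farther from the start, at -103 in Kif2c, at -228 in Kif14 and at 29 in Kifc5b. Kif14 also had TTTAAA at -42.

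Of 24 transcripts of transport and other kinesins tested, 2 rose and 3 fell, with a median log2 fold change of -0.43. Kif5a, the neuronal kinesin-1 heavy chain, fell from 13, 11.4 and 12.9 CPM to 0.742, 4.84 and 3.13 CPM (log2 -2.03, SE 0.56, adjusted p = 0.0184, edgeR). Its paralogs did not pass: Kif5b had 601, 561 and 547 CPM against 496, 404 and 423 CPM (log2 -0.37, SE 0.20, adjusted p = 0.204), and Kif5c 49.6, 22.8 and 24.0 CPM against 15.6, 20.8 and 21 CPM (log2 -0.74, SE 0.36, adjusted p = 0.153). All injured libraries of these 3 genes were below all naive ones, and the differences between the paralogs were not tested. Kif3c, the kinesin-2 subunit of neurons, fell from 32, 30.7 and 21.7 CPM to 12.4, 4.28 and 6.55 CPM (log2 -1.90, SE 0.43, adjusted p = 0.0059, edgeR). Its exons share 38.5% of their bases with the antisense gene 1110002L01Rik, and since no source used here says which strand was counted the reads cannot be told apart. Kif2a, a microtubule-depolymerising kinesin that prunes axon branches, fell from 47.1, 59.9 and 62.2 CPM to 10.1, 17 and 34.5 CPM (log2 -1.43, SE 0.39, adjusted p = 0.0161). Without injured input 2 or naive input 2 Kif2a had adjusted p-values of 0.0815 and 0.0518, and 23.2% of its exon bases are shared with Dimt1.

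Kif3a, a motor subunit of kinesin-2, had 58.1, 50.8 and 70.9 CPM in naive and 90.7, 89.8 and 103 CPM in injured input and just missed the threshold (log2 0.66, SE 0.23, adjusted p = 0.0533, edgeR). Without naive input 3 its adjusted p was 0.0456. Kif1b, which carries synaptic vesicle precursors and mitochondria, had 2 coding transcripts with different values. The one numbered ENSMUST00000030806 rose from 67.9, 57.8 and 58.1 CPM to 133, 123 and 88.9 CPM (log2 0.91, SE 0.24, adjusted p = 0.014). The longer one, ENSMUST00000060537, had 121, 169 and 223 CPM against 161, 116 and 101 CPM (log2 -0.44, SE 0.27, adjusted p = 0.253). The call for the shorter Kif1b transcript was lost without injured input 1, injured input 2 or naive input 2, with adjusted p-values of 0.0567, 0.0642 and 0.0861. Kif26b, a kinesin-like signalling protein, rose from 0, 0.575 and 0.614 CPM to 5.19, 9.85 and 4.37 CPM (log2 3.97, SE 0.88, adjusted p = 0.00532), and 14.6% of its exon bases are shared with Gm16564. The kinesin light chains, which join kinesin-1 to cargo, gave 2 higher calls in 4 tested. Klc4 rose from 16.3, 19.6 and 10.1 CPM to 45.0, 58.8 and 26.2 CPM (log2 1.5, SE 0.37, adjusted p = 0.01), a call lost without injured input 2 (adjusted p = 0.0782). A retained-intron transcript of Klc1 rose from 1.09, 1.93 and 0.819 CPM to 9.40, 5.97 and 2.66 CPM (log2 2.19, SE 0.66, adjusted p = 0.026), and lost its call without injured input 1 or 2 or naive input 1 or 3 (adjusted p = 0.0693 to 0.0876).

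Of 9 dynein light chain transcripts tested, 6 fell and 0 rose, all 9 had negative log2 fold changes and the median was -1.23. Dynlt3, a Tctex-type light chain that binds cargo, fell from 755, 649 and 702 CPM to 338, 281 and 370 CPM (log2 -1.09, SE 0.21, adjusted p = 0.00245, edgeR). Dynll1, the LC8 hub light chain, had 3 transcripts that fell. ENSMUST00000009157, the most abundant of them, went from 234, 227 and 297 CPM to 128, 162 and 120 CPM (log2 -0.89, SE 0.23, adjusted p = 0.0114), a call that scaling to library totals ended (log2 -1.14, adjusted p = 0.0844). ENSMUST00000112090 went from 22.3, 19.6 and 6.70 CPM to 2.97, 1.86 and 2.83 CPM (log2 -2.68, SE 0.54, adjusted p = 0.00313), and the retained-intron transcript ENSMUST00000125959 from 7.00, 7.99 and 3.53 CPM to 0.247, 0.565 and 1.00 CPM (log2 -3.19, SE 0.67, adjusted p = 0.00393). The naive and injured libraries did not overlap for any of these 4 transcripts. Dynlrb1, the roadblock light chain, fell in both of its transcripts. ENSMUST00000109682 had 79.9, 54.5 and 41 CPM against 14.8, 8.64 and 7.20 CPM (log2 -2.55, SE 0.37, adjusted p = 0.00039), and ENSMUST00000150602 fell by 2.96 on the log2 scale (SE 0.69, adjusted p = 0.00724). The paralog Dynll2 had 10.9, 3.92 and 0.870 CPM against 6.18, 0.565 and 0.708 CPM and did not pass (log2 -1.23, SE 1.01, adjusted p = 0.40), although without injured input 1 the value was -3.11 (adjusted p = 0.0426). Dynlt1a (log2 -0.89, adjusted p = 0.235) and Dynlt1f (log2 -0.45, adjusted p = 0.591) have near-identical copies and their counts are uncertain.

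The other dynein chains are given beside these values, and the difference between the chain types was not tested. Of 11 transcripts of heavy, intermediate and light intermediate chains 0 rose and 1 fell, with a median of 0.52. Dync1h1 had 156, 219 and 258 CPM in naive and 421, 426 and 217 CPM in injured input (log2 0.75, SE 0.29, adjusted p = 0.0727, edgeR). Injured input 3 was the low one, and without it the log2 fold change was 1.00 and the adjusted p 0.0132. Dync2li1, a light intermediate chain of the cilium's dynein, fell from 23, 29.7 and 61.4 CPM to 14.1, 18.8 and 18.4 CPM (log2 -1.15, SE 0.38, adjusted p = 0.0413). That call held without naive input 1 and was lost without each of the other 5 input libraries (adjusted p = 0.0614 to 0.247, the highest without naive input 3). The most abundant listed transcript of Dync1i2, an intermediate chain, is a retained-intron form (log2 0.60, SE 0.31, adjusted p = 0.183). For dynactin, which couples dynein to cargo, 0 of 4 transcripts passed in edgeR, and the median was -0.10. Dctn2 had 154, 198 and 250 CPM against 201, 124 and 115 CPM (log2 -0.45, adjusted p = 0.242), and Dctn4 had a log2 fold change of 0.38 (adjusted p = 0.233).

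Among the mitochondrial adaptors Trak1, which joins Miro to kinesin, was the 1 of 5 tested that fell, from 55.7, 69.7 and 58.6 CPM to 8.41, 12.6 and 24.1 CPM (log2 -2.0, SE 0.37, adjusted p = 0.00165, edgeR). Its relative Trak2 had a log2 fold change of -0.25 (adjusted p = 0.448). The coding transcript of the Miro GTPase Rhot1 had -1.56 (adjusted p = 0.0736), and its retained-intron transcript -1.21 (adjusted p = 0.155). Rhot2 had 12.5, 14.3 and 18.5 CPM against 12.9, 12.2 and 7.02 CPM (log2 -0.51, SE 0.40, adjusted p = 0.379), with overlapping groups.

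Of 16 endosomal and lysosomal Rab transcripts tested, 3 rose and 3 fell (median 0.13). Rab31, a relative of Rab5 on early endosomes and phagosomes, rose from 61.8, 74.6 and 123 CPM to 399, 405 and 242 CPM (log2 2.01, SE 0.30, adjusted p = 0.000493, edgeR). Rab20, a Rab of phagosomes, rose from 17.7, 21 and 32.6 CPM to 91.5, 123 and 65.4 CPM (log2 1.97, SE 0.32, adjusted p = 0.000778). Rab7b, a late endosome Rab of macrophages, rose from 19.1, 26.5 and 28.0 CPM to 56.1, 47.4 and 60.7 CPM (log2 1.15, SE 0.27, adjusted p = 0.00776). None of these groups overlapped. Scaling to library totals ended the call for Rab7b (log2 0.90, adjusted p = 0.216), and exons of Rab20 share 25.6% of their bases with E230013L22Rik on the opposite strand. Rab9b, a brain-enriched relative of the late endosome Rab9, fell from 26.4, 21.6 and 13.8 CPM to 3.46, 2.83 and 3.19 CPM (log2 -2.71, SE 0.43, adjusted p = 0.000665). Rab5a, the GTPase of early endosomes, fell from 66.2, 61.8 and 31.3 CPM to 10.1, 20.0 and 22.4 CPM (log2 -1.58, SE 0.38, adjusted p = 0.0078). Rab35, a recycling Rab, fell by 0.90 on the log2 scale (SE 0.27, adjusted p = 0.0261), a call lost without injured input 2 or any 1 of the naive inputs (adjusted p = 0.062 to 0.0801). Rab11a, of recycling endosomes, and Rab7, of late endosomes, had log2 fold changes of -0.05 (adjusted p = 0.875) and 0.39 (adjusted p = 0.603).

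In the secretory roles Rab32, of lysosome-related organelles and mitochondria, was the 1 of 4 in its role that rose, from 78.9, 87.4 and 94.5 CPM to 178, 331 and 244 CPM (log2 1.53, SE 0.26, adjusted p = 0.000929, edgeR). Among 21 Golgi, endoplasmic reticulum and secretory Rabs 1 rose and 6 fell (median -0.52). Rab8b, of surface delivery, rose from 156, 187 and 157 CPM to 608, 457 and 348 CPM (log2 1.5, SE 0.25, adjusted p = 0.000829). Rab39b, a neuronal Rab, fell from 36.8, 24.6 and 33 CPM to 4.70, 5.09 and 9.44 CPM (log2 -2.27, SE 0.39, adjusted p = 0.00113). Rab40b fell from 29.2, 28.9 and 38.2 CPM to 6.43, 7.75 and 9.85 CPM (log2 -1.99, SE 0.34, adjusted p = 0.00113), and Rab6b, the neuronal form of the Golgi GTPase Rab6, from 105, 109 and 121 CPM to 36.1, 29.1 and 39 CPM (log2 -1.68, SE 0.24, adjusted p = 0.000308). No group pair of these 4 genes overlapped. The other calls were Rab33b, Rab2a and Rab1b of the Golgi and its entry, which fell by 1.28, 0.90 and 0.76 on the log2 scale. The call for Rab1b was lost without injured input 1 or 3 or naive input 2 or 3 (adjusted p = 0.0673 to 0.138). Scaling to library totals ended the calls for Rab1b (adjusted p = 0.144), Rab2a (adjusted p = 0.106) and Rab8b (log2 1.12, adjusted p = 0.0876). Exons of Rab39b share 18.6% of their bases with Gm15063 and those of Rab33b 17.6% with Gm38160, both on the opposite strand. Of 8 other Rabs 2 rose. Rab44, a large Rab of blood cells, had 0.193, 1.15 and 0.665 CPM against 2.97, 12.1 and 5.6 CPM (log2 3.35, SE 0.76, adjusted p = 0.00606), and Rab29, of lysosomes and Golgi, 16.3, 24.3 and 28.2 CPM against 63.8, 83.0 and 38.3 CPM (log2 1.42, SE 0.34, adjusted p = 0.00752). Both calls were lost without injured input 2, with adjusted p-values of 0.0551 for Rab44 and 0.0506 for Rab29. The macrophage markers moved with the Rabs that rose, 10 of 14 being higher with a median of 1.94, and 8 of 9 Schwann cell markers were lower with a median of -2.49. Of 9 neuron and axon markers 2 were higher and 1 lower (median 0.21). The part of these cells in the Rab values was not tested.

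Motor and Rab regulators that are no members were read as a list. Of 47 tested transcripts 8 were higher and 6 lower, with a median of -0.16. The background over all transcripts tested in input was 14.5% higher and 13.4% lower, and a difference of the list from it was not tested. Myo5a, the actin motor that takes over cargo from microtubules, was higher by 2.21 on the log2 scale (adjusted p = 7e-05, edgeR), as were the dynactin capping subunits Capzb (2.18), Capza1 (1.06) and Capza2 (1.02), and Rilpl2 (2.18), which binds Rabs and Myo5a. The dynein adaptor Bicd1 was lower (-2.25), as was the prenylated Rab acceptor Rabac1 (-1.83).

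The same injured-to-naive contrast was then read in the precipitates. In the nucleolin IP 1 of 90 members tested passed (background 0.828%), Kif20b, which rose from 17.4, 6.36 and 3.62 CPM to 128, 108 and 63.8 CPM (log2 3.45, SE 0.67, adjusted p = 0.0377, edgeR). The call was lost without any 1 of the 3 injured IP libraries or without naive IP 2 or 3 (adjusted p = 0.0574 to 0.195). Same-numbered libraries deviated together here (correlations 0.332, 0.119 and 0.555), although that does not establish that they were paired. With the replicate as a block in edgeR 2 members passed, a count given without its share over all transcripts. They were Kif20b (log2 3.63, adjusted p = 0.00769) and Dynlrb1 (ENSMUST00000109682, log2 -3.86, adjusted p = 0.0477). With nucleolin, only transcripts listed for both naive and injured nerve were tested. Among the mitotic kinesins these were Kif11, Kif15, Kif18a, Kif20b and Kif23. Kif18b, Kif2c, Kif4, Kif14, Kif22, Kif24 and Kifc5b were not tested there. In the fit without a block, those tested apart from Kif20b had positive values that did not pass, such as Kif15 (log2 4.94, adjusted p = 0.107) and Kif23 (log2 2.49, adjusted p = 0.205). The next members by p were Dync1h1 (log2 1.40, adjusted p = 0.157) and a coding transcript of Klc1 (log2 3.27, adjusted p = 0.195). In the nucleolin blocked IP 4 of 90 passed (background 1.55%). Kif20b rose there too, from 7.09, 7.74 and 3.70 CPM to 124, 90.5 and 70.4 CPM (log2 3.94, SE 0.69, adjusted p = 0.0228), and so did Kif23, from 10.9, 0.791 and 4.39 CPM to 104, 92.1 and 64.2 CPM (log2 4.01, SE 0.87, adjusted p = 0.0412). Rab6b fell from 407, 126 and 118 CPM to 46.9, 22.7 and 39.2 CPM (log2 -2.58, SE 0.53, adjusted p = 0.0368). Rab9b, with 27.6, 67.1 and 8.79 CPM in naive and 0, 0 and 0.662 CPM in injured blocked libraries, also passed (adjusted p = 0.0326). All 4 calls were lost without injured blocked IP 2, without naive blocked IP 2 and in a fit of the 6 compared libraries alone, while the signs stayed (for Kif20b adjusted p = 0.0548, 0.052 and 0.108). A retained-intron transcript of Dync1i2 (ENSMUST00000149735) came next, with a mean of 52.7 CPM in naive and 3.50 CPM in injured blocked IP (log2 -3.91, adjusted p = 0.0556). Single calls were lost without the other libraries too: Kif23, Rab6b and Rab9b without injured blocked IP 1, Rab6b without injured blocked IP 3 or naive blocked IP 1, and Kif23 without naive blocked IP 3.

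In the PTBP1 IP 0 of 123 members passed in edgeR (background 0.00688%). At an unadjusted p under 0.05 there were 19 (background 10.3%), and DESeq2 called 12 (background 4.73%). Kif18b had 0, 0.0699 and 0.159 CPM in naive and 31.8, 30.0 and 24.8 CPM in injured PTBP1 IP and was not called (adjusted p = 0.255). Kif15 (log2 5.19, adjusted p = 0.265), Kif14 (log2 5.50, adjusted p = 0.291), Rab8b (log2 1.91, adjusted p = 0.297) and Kif26b (adjusted p = 0.338) followed. In the PTBP1 blocked IP 0 passed in edgeR (background 0.0275%), with 24 at an unadjusted p under 0.05 (background 21.7%) and 23 in DESeq2 (background 16.7%). Leaving out either injured or naive blocked library 3 gave 1 in edgeR, a count given without its share over all transcripts. The smallest p was that of the retained-intron Rhot1 transcript ENSMUST00000154362, with a mean of 35.4 CPM in naive and no count in injured blocked IP (adjusted p = 0.0635). Kif15 had 0, 0 and 0.0400 CPM in naive and 177, 38.3 and 34.7 CPM in injured PTBP1 blocked IP (adjusted p = 0.0656). Kif14 was next (adjusted p = 0.0904), and Kif2c was at 0 in all 3 naive and had a mean of 40.7 CPM in injured blocked libraries, at least 857-fold higher against a floor of 3 counts over the group (adjusted p = 0.103). A transcript was listed for PTBP1 with at least 5 counts in all 3 libraries of any 1 group. Transcripts at 0 in a group were thus listed through the groups where they were high. A retained-intron transcript of Dctn1, the large dynactin subunit, had a mean of 0.777 CPM in naive and no count in injured blocked IP (adjusted p = 0.11). The dividing-cell markers moved the same way in the precipitates, from 68.5 to 127 CPM in naive to 1131 to 1749 CPM in injured nucleolin IP, and from 62.2 to 108 CPM to 1216 to 1825 CPM in PTBP1 IP.

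**Figure D3:**
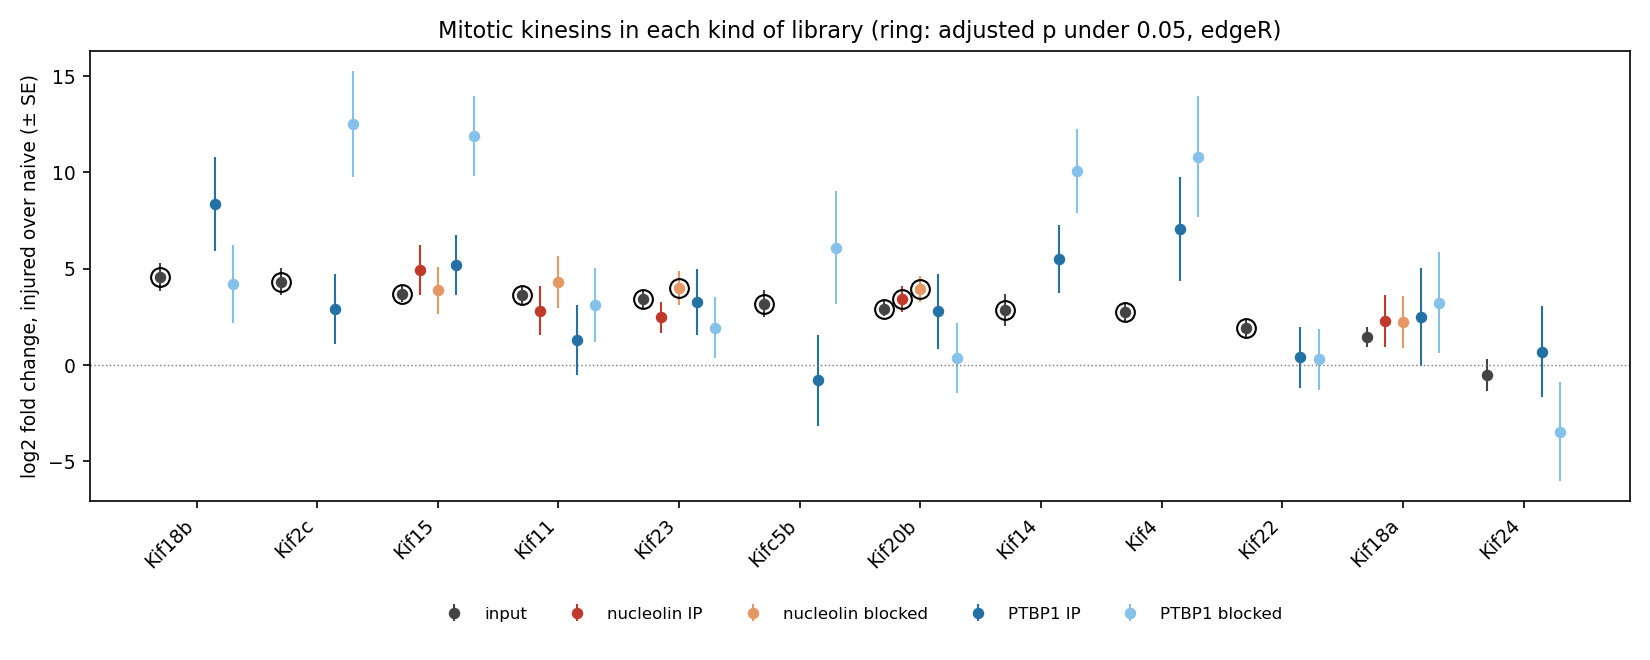
Log2 fold change of each mitotic kinesin tested, injured over naive (y axis, edgeR, bars ± SE, 3 libraries a group), in input, nucleolin IP, nucleolin blocked IP, PTBP1 IP and PTBP1 blocked IP. Rings mark adjusted p under 0.05. In the 2 nucleolin sets only Kif11, Kif15, Kif18a, Kif20b and Kif23 were tested and drawn. In input 10 of the 12 are ringed, and outside input the rings are Kif20b in both nucleolin sets and Kif23 in nucleolin blocked IP; fitted values of PTBP1 blocked IP above 8 rest on naive libraries at or near 0 counts.

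PTBP1 IP over input called 4 members: the mitochondrial GTPase Rhot2 in naive and injured nerve, and the endosomal Rabs Rab21, Rab5b and Rab11b in injured nerve. In naive nerve 1 of 108 members tested passed (background 0.218%), and in injured nerve 4 of 108 (background 1.02%). Rhot2, the Miro GTPase on the outer mitochondrial membrane, had 12.7, 13.9 and 17.2 CPM in naive input, 589, 355 and 29.9 CPM in naive blocked IP and 2806, 1938 and 120.1 CPM in naive PTBP1 IP. The lowest IP library was above the highest input, and the IP exceeded input by 6.79 on the log2 scale (SE 1.30, adjusted p = 0.0474, edgeR). In injured nerve the inputs had 11.8, 12 and 6.83 CPM, the blocked IP 557, 646 and 45.3 CPM and the IP 836, 1227 and 172 CPM (IP over input log2 6.20, SE 1.27, adjusted p = 0.0308). The blocked control of Rhot2 was itself above input, by 4.47 in naive nerve (adjusted p = 0.0879) and 5.36 in injured nerve (adjusted p = 0.0749), values that did not pass. Library 3 was the lowest in both IP groups and both blocked groups. Exons of Rhot2 share 41% of their bases with Gm20683 on the same strand, so reads of these genes cannot be told apart. In the nucleolin IP Rhot2 had 30.3, 30.0 and 16.1 CPM beside 15.8, 16.9 and 20.5 CPM in naive input, a log2 difference of 0.52.

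Rab21, which guides integrins into early endosomes, had 138, 153 and 160 CPM in injured input, 48.0, 150 and 98.6 CPM in injured blocked IP and 2877, 2544 and 403 CPM in injured PTBP1 IP. The lowest IP library was above all others, and the IP exceeded input by 3.69 (log2, SE 0.73, adjusted p = 0.0308, edgeR), while the blocked control was at -0.60. In naive nerve Rab21 had 117, 131 and 149 CPM in input and 1082, 815 and 200 CPM in the IP and did not pass (log2 2.40, adjusted p = 0.187). Rab5b, a paralog of Rab5a, had 57.7, 39.8 and 30.3 CPM in injured input, 88.0, 55.9 and 48.9 CPM in blocked IP and 681, 323 and 96.4 CPM in PTBP1 IP (IP over input log2 3.11, SE 0.63, adjusted p = 0.0308). In naive nerve it had 66.3, 54.0 and 76.3 CPM in input and 239, 176 and 123 CPM in the IP (log2 1.45, adjusted p = 0.532). Rab11b, of recycling endosomes, had 208, 191 and 204 CPM in injured input, 300, 328 and 243 CPM in blocked IP and 1110, 715 and 340 CPM in the IP (log2 1.84, SE 0.43, adjusted p = 0.0461), and in naive nerve a log2 difference of 0.44 (adjusted p = 0.913). The long Kif1b transcript came next, with 148, 114 and 97.8 CPM in injured input and 1750, 1700 and 225 CPM in injured IP (log2 3.36, adjusted p = 0.0813). All 5 calls held without library 3 of the IP, where 3 members passed in naive and 6 in injured nerve. Those counts are given without their share over all transcripts and were not compared with a background. All 5 calls were lost without any other 1 of the libraries compared, with the sign kept. Rhot2 then had adjusted p-values (edgeR) of 0.0988 to 0.433 in naive and 0.0861 to 0.223 in injured nerve. Rab21 had 0.0835 to 0.223, Rab5b 0.0824 to 0.219 and Rab11b 0.121 to 0.266. Naive Rhot2 also lost its call in a fit of the compared libraries alone (adjusted p = 0.147) and under DESeq2's size factors (adjusted p = 0.0596). Rab11b lost its call under scaling to library totals (log2 1.42, adjusted p = 0.33).

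**Figure D4:**
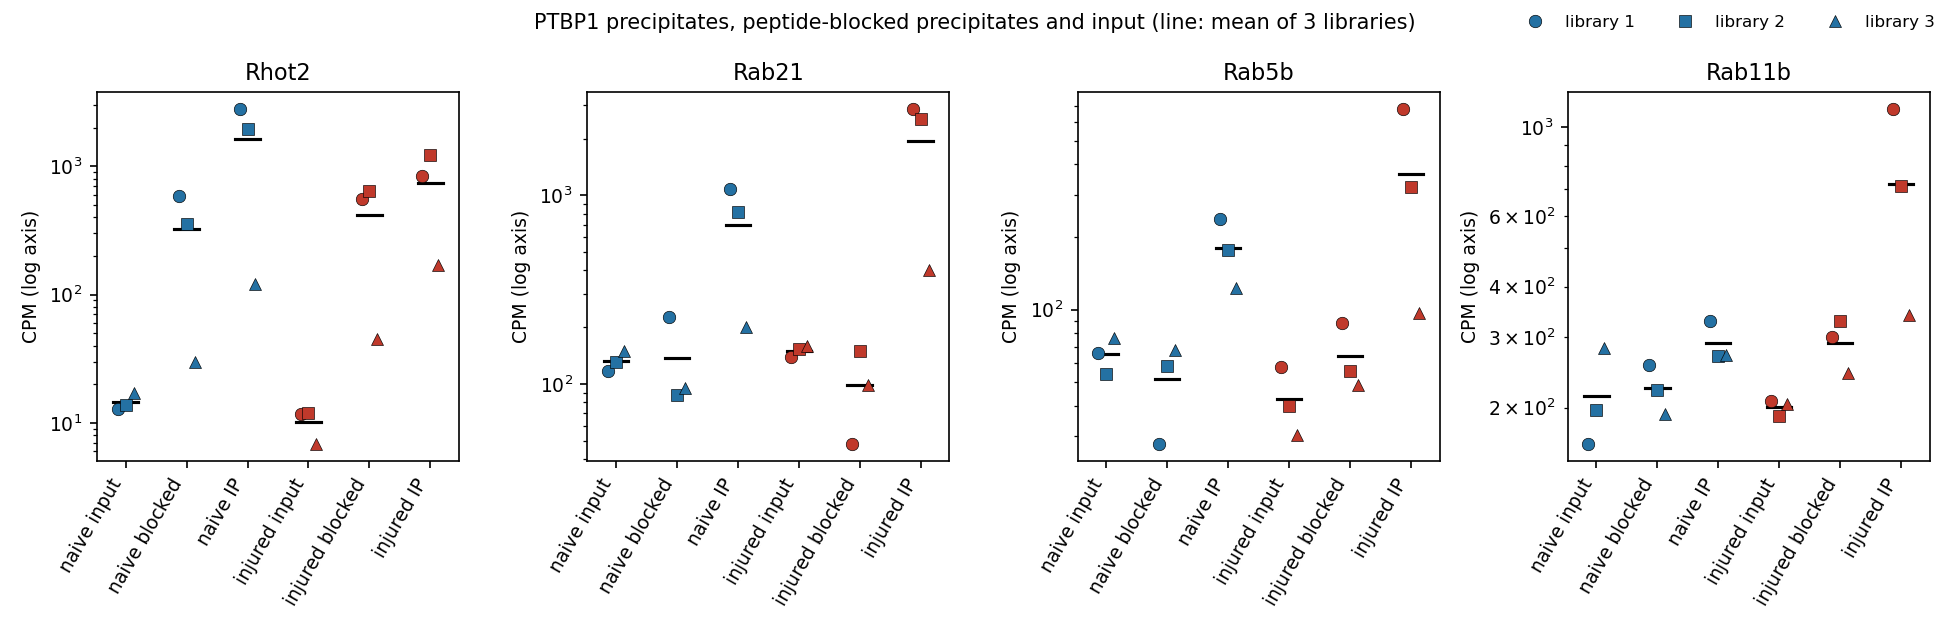
CPM (y axis, log scale) of Rhot2, Rab21, Rab5b and Rab11b in input, blocked IP and PTBP1 IP of naive (blue) and injured (red) nerve; each point is a library, its shape is the library number and the line is the mean. Library 3 (triangle) is the lowest IP library for Rhot2, Rab21 and Rab5b in both states, and the Rhot2 blocked IP points lie above input and overlap those of the IP, whose library 3 is below blocked libraries 1 and 2.

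Of the 4 called members 3 hold a pyrimidine run of 40 bases or more, the kind of sequence PTBP1 is known to bind, and Rab11b does not. Both this feature and the 40-base bound were chosen after the values were seen, so the 3 of 4 is a description and not a test. Over 12171 tested transcripts with a GENCODE sequence (GRCm38), the median longest run of C and T was 14 bases. The longest run of Rhot2 had 101 bases, longer than in 99.4% of transcripts, that of Rab21 had 56 (97.8%), that of Rab5b 41 (96.0%) and that of Rab11b 19 (77.8%), all in the 3′ UTR. The long Kif1b transcript had a run of 58 bases (97.9%), also in the 3′ UTR, and the retained-intron transcript of Rhot1 (ENSMUST00000154362) one of 35 (94.6%). For 4 of these transcripts the first bases of the run, up to 30, are printed 5′ to 3′ on the transcript's strand, with the tetramer TCTT (UCUU in RNA), a known PTBP1 letter pattern, in capitals.
Rhot2 chr17:25838776-25838805, minus strand: ctttctcTCTTtctctccctcccttccttc
Rab21 chr10:115287849-115287878, minus strand: TCTTcctccctccctccctccctctctccc
Rab11b chr17:33746866-33746884, minus strand: cccctctccctcctcctct
Rhot1 chr11:80251645-80251674, plus strand: tctctctctcTCTTtcTCTTtctcTCTTtc
The Rab11b stretch holds no TCTT. Over the whole transcript, TCTT occurred 8.47 times per kb in Rhot2, 8.04 in Rab21, 7.23 in Rab5b and 6.71 in Rab11b, beside a median of 5.15 per kb.

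The same feature was then described over all transcripts, members and others apart. In injured nerve the 4 members with a run of 40 bases or more had a median log2 PTBP1 IP over input of 3.52, and 3 of them were called. The 498 other transcripts of that class had a median of 2.54, 88.2% were above 0 and 12.4% were called higher. With runs of 20 to 39 bases the medians were 0.69 for 19 members and 0.35 for 1814 others, of which 1.76% were called higher. With shorter runs they were -0.23 for 85 members and -0.20 for 9751 others, of which 0.205% were called higher. The called member of that class was Rab11b, 1 of 85 (1.18%). In naive nerve the medians by class, from long to short, were 2.75, 0.19 and -0.27 for members and 2.24, 0.14 and -0.12 for others. Rab8a, a secretory Rab with a run of 37 bases, was below 0 in injured nerve, so a long run did not go with a high value in every member. Over the blocked control the class of 40 bases or more had member medians of 2.04 in naive and 1.79 in injured nerve, and medians of 1.90 and 1.57 for the others. The PTBP1 blocked control of that class was itself above input, with medians of 0.89 in naive and 1.43 in injured nerve for members and 0.27 and 0.94 for the others, of which 57.4% and 68.7% were above 0. In the nucleolin IP over input the members of that class had medians of -0.21 and -0.31, and 393 others 0.39 and 0.24. Transcripts of the longer classes are also longer, with median lengths of 4260 and 3956 bases for other transcripts of the upper 2 classes against 2461 bases for runs under 20, and the part of length was not tested. The same values are plotted against run length.

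**Figure D5:**
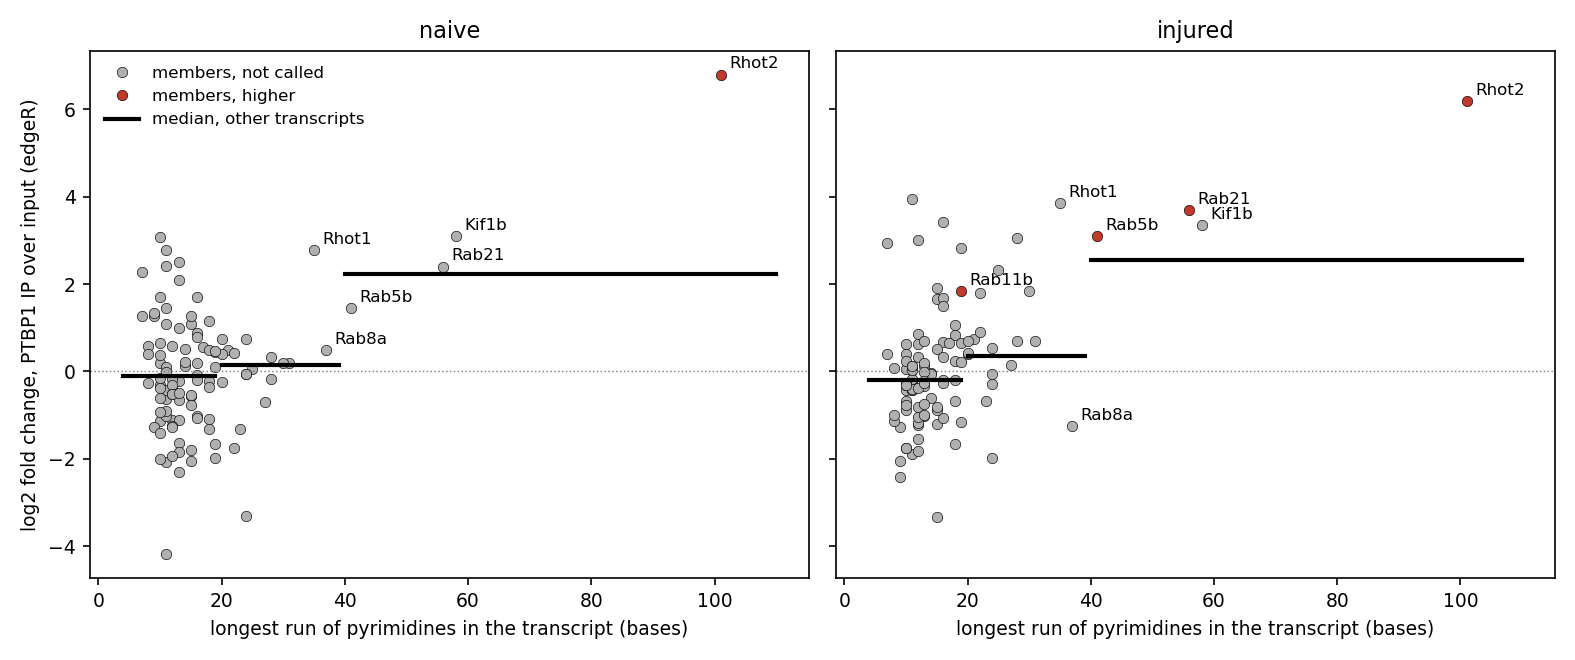
Log2 fold change of PTBP1 IP over input (y axis, edgeR) against the longest run of pyrimidines in the transcript (x axis, bases) for members with a GENCODE sequence, in naive and injured nerve; red points are called higher, grey points are not called, and black lines are the medians of the other transcripts in runs under 20, 20 to 39 and 40 or more bases. The 4 members with runs of 40 bases or more lie above 1 in both panels, and Rhot2, at 101 bases, is the farthest right.

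The design's own control, the IP against the peptide-blocked IP, gave no member that passed. In naive nerve 0 of 90 members passed for nucleolin in edgeR (background 0), 12 had an unadjusted p under 0.05 (background 12%) and DESeq2 called 4 (background 6.42%). Without naive nucleolin blocked IP 3, 2 members passed in edgeR, Rab38 and a retained-intron transcript of Kif1b. That count is given without its share over all transcripts. Both had no count in naive nucleolin blocked IP 1 and 2. In the library left out Rab38 had 27.5 CPM and the Kif1b transcript 1.445 CPM. In injured nerve the nucleolin counts were 0 in edgeR (background 0), 8 unadjusted (background 6.49%) and 4 in DESeq2 (background 2.71%). For PTBP1 0 of 123 passed in naive nerve in edgeR (background 0), 14 had an unadjusted p under 0.05 (background 13%) and DESeq2 called 8 (background 7.5%). In injured nerve the PTBP1 counts were 0 in edgeR (background 0), 17 unadjusted (background 12.5%) and 10 in DESeq2 (background 6.4%). The member medians were -0.19, -0.03, -0.09 and 0.12 in these 4 comparisons, beside -0.11, -0.06, 0.05 and 0.02 over all transcripts. In the authors' deposited table, at their FDR under 0.05, 3 members were higher and 1 lower for nucleolin in naive nerve (5.43% of that table) and 2 were higher in injured nerve (0.669%). In the authors' deposited table for PTBP1, 7 members were higher in naive nerve (4.34%) and 9 in injured nerve (7.72%).

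Some members stood out by value without passing. In injured nerve Rab21 had 2628, 2397 and 416 CPM in PTBP1 IP and 43.9, 142 and 99.4 CPM in blocked IP (log2 4.25, SE 0.86, adjusted p = 0.217, edgeR). The groups did not overlap, and the authors' deposited table gave an FDR of 0.000397 for it. Rab5b had 622, 304 and 99.5 CPM against 80.5, 52.9 and 49.3 CPM (log2 2.49, SE 0.72, adjusted p = 0.217). Dync1h1, the heavy chain of dynein, went the other way, with 200, 217 and 222 CPM in PTBP1 IP and 503, 735 and 561 CPM in blocked IP (log2 -1.49, SE 0.48, adjusted p = 0.218). In naive nerve the 5 smallest p-values with PTBP1 all had an adjusted p of 0.222. They were retained-intron transcripts of Dync1h1, Rab4b, Rab23 and Dctn1, and Kif2c, each with no count in 1 group or close to it: the Dync1h1 one had 8.08, 5.52 and 3.02 CPM in the IP and none in the blocked IP. For Rhot2 in naive nerve the authors' deposited table gave an FDR of 0.00849. With nucleolin, Rab8b had 988, 744 and 283 CPM in naive IP and 233, 130 and 209 CPM in blocked IP (log2 1.82, SE 0.54, adjusted p = 0.16). In injured nerve Rab9b had 45.2, 21 and 12.4 CPM in nucleolin IP and 0, 0 and 0.662 CPM in blocked IP (adjusted p = 0.11), and Rab7 168, 164 and 53.8 CPM against 40.4, 18.1 and 31.7 CPM (log2 2.10, SE 0.63, adjusted p = 0.308). Also by p, Rab29 had a log2 difference of 2.04 in naive nerve (adjusted p = 0.359), a processed transcript of Rab4b -4.34 (adjusted p = 0.272) and Kif5a -2.77 (adjusted p = 0.361), where Kif5a had 452, 26.3 and 14 CPM in the blocked libraries. Exons of the Rab4b transcripts tested share 25.6% to 85.2% of their bases with Gm21983 on the same strand, so their counts are uncertain. In injured nerve Rab6b had a log2 difference of 1.64 (adjusted p = 0.341), and the Dync1i2 retained-intron transcripts ENSMUST00000149735 and ENSMUST00000137683 had 4.56 (adjusted p = 0.128) and 3.98 (adjusted p = 0.473). Kif9, a kinesin of motile cilia, had 5.83, 7.41 and 0.961 CPM in naive nucleolin IP and no count in its 3 blocked libraries, at least 82.3-fold higher at the floor of 3 counts over the group (adjusted p = 0.13). In naive nerve Kif9 was listed for nucleolin only through the IP, the group where it was high.

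Whether enrichment over the blocked control changed with injury was tested as an interaction. For nucleolin 0 members passed in edgeR (background 0), 5 had an unadjusted p under 0.05 (background 2.55%) and DESeq2 called 0 (background 0.169%). The 5 were Rab4b, Kif9, Dync1i2, Rab9b and Rab32, each with an adjusted p of 1. For PTBP1 0 passed in edgeR (background 0), 10 had an unadjusted p under 0.05 (background 7.89%) and DESeq2 called 7 (background 2.87%). The smallest p among members was that of the retained-intron Rhot1 transcript ENSMUST00000154362 with PTBP1 (adjusted p = 0.541), followed by Rab23, Kif2c, Kif15 and a coding transcript of Dync1i2 at the same adjusted p. The Rhot1 transcript had 34.3, 38.3 and 10.6 CPM in injured PTBP1 IP, no count in any injured blocked library, and 36.4, 38.6 and 31.2 CPM in naive blocked IP. The injured IP was at least 464-fold and the naive blocked IP at least 592-fold above the injured blocked libraries, at the floor of 3 counts over the group. Listing for PTBP1 needed counts in the libraries of only 1 group, so a group with none was let through. Injured and naive blocked IP did not differ past the threshold for it (adjusted p = 0.0635). Groups with no count are given by transcript class, with no test of the difference and without the share over all transcripts of a class. In single injured PTBP1 blocked libraries 16.9% to 28.7% of all listed transcripts had no count. Of 23 retained-intron and other non-coding members in the PTBP1 libraries 8 had no count in any injured blocked library, and of 100 coding members 0 had none. In naive blocked IP the counts were 3 of 23 and 4 of 100, and in naive nucleolin blocked IP 0 of 9 and 1 of 81.

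Nucleolin IP over input gave 0 of 86 members in naive nerve in edgeR (background 1.06%), with 12 at an unadjusted p under 0.05 (background 13.7%) and 4 in DESeq2 (background 5.52%). In injured nerve it gave 0 of 86 in edgeR (background 0.404%), 14 unadjusted (background 14.7%) and 6 in DESeq2 (background 6.58%). Rab8b was nearest in naive nerve, with 960, 706 and 264 CPM in the IP and 196, 222 and 174 CPM in input (log2 1.70, adjusted p = 0.0965), and its blocked control at 221, 126 and 186 CPM. Kifc2, a minus-end kinesin of dendrites and axons, was nearest in injured nerve, with 34.5, 28.9 and 15.6 CPM in the IP and 2.03, 6.18 and 4.80 CPM in input (log2 2.58, adjusted p = 0.0944). Neither gene's groups overlapped, and the blocked control of Kifc2 was as high as its IP, at 47, 25.5 and 21.9 CPM. Without library 3 of the IP, 3 members passed in naive nerve and 4 in injured nerve, counts given without their share over all transcripts. Kif5b was at the other end in injured nerve, with 230, 272 and 349 CPM in the IP and 581, 491 and 530 CPM in input (log2 -0.91, adjusted p = 0.159; blocked control over input -0.93), and Dynll1 (ENSMUST00000009157) in naive nerve, with 47.2, 66.1 and 156 CPM against 295, 269 and 329 CPM (log2 -1.73, adjusted p = 0.198). Same-numbered injured libraries of this comparison deviated together (correlations 0.152, 0.178 and 0.203), although that does not establish that they were paired. With the replicate as a block in edgeR 2 members passed there, a count given without its share over all transcripts. They were Dynll1, lower in the IP (log2 -1.69, adjusted p = 0.039), and Rab24, an autophagy-related Rab, higher (log2 1.16, adjusted p = 0.033). Exons of Rab24 share 66.4% of their bases with Prelid1 on the opposite strand, so its reads cannot be told apart from those of Prelid1. In the fit without a block the blocked control of Rab24 exceeded input by 1.63 in the same nerves (adjusted p = 0.141). Other members near the top by p were the Dync1i2 transcript ENSMUST00000149735 (log2 2.73 in naive and 2.94 in injured nerve, adjusted p = 0.132 and 0.0961), Rab24 (log2 1.26, adjusted p = 0.216) and Klc1 (log2 -2.67, adjusted p = 0.223) in naive nerve, and Rab21 (log2 -1.37, adjusted p = 0.129) and Rab7 (log2 1.97, adjusted p = 0.138) in injured nerve.

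The blocked precipitates were set against input as the background of the values over input. For nucleolin 0 of 86 members passed in edgeR in naive nerve (background 0), with 12 at an unadjusted p under 0.05 (background 12.8%) and 3 in DESeq2 (background 3.14%). In injured nerve it was 0 in edgeR (background 0), 17 unadjusted (background 12.8%) and 4 in DESeq2 (background 3.98%). For PTBP1 0 of 108 passed in naive nerve in edgeR (background 0), with 24 unadjusted (background 14.7%) and 17 in DESeq2 (background 9.23%), and in injured nerve 0 in edgeR (background 0.0161%), 17 unadjusted (background 14.8%) and 11 in DESeq2 (background 9.51%). Some members were high in a blocked control. Kif5a exceeded input by 3.39 in naive nucleolin blocked IP (adjusted p = 0.198) and by 4.89 in injured PTBP1 blocked IP (adjusted p = 0.0912), and Rab24 by 1.87 in naive nucleolin blocked IP (adjusted p = 0.157). Kif15 was low in naive PTBP1 blocked IP, at a mean of 0.0132 CPM against 2.11 CPM in input (adjusted p = 0.0744), which is the control that its injured-to-naive value in that library kind rests on. Without library 3 of the blocked IP the edgeR counts were 6 and 8 for nucleolin and 11 and 2 for PTBP1, in naive and injured nerve. The share over all transcripts in those fits is not given here, so these counts were not compared with a background.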

How the data were processed

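RNA was measured by sequencing in 30 libraries of sciatic nerve extract, 3 for each of 10 groups taken from the sample titles. The deposited tables hold whole-number counts per transcript, with a log2 fold change, p-value and FDR for each of the authors' own comparisons, per the file headers. CASAVA 1.8.2 and edgeR are named per the submitters' processing notes. Aligner, counting tool and strand setting were not given in the sources used here. Tested on the files, each transcript has at least 5 counts in all 3 libraries of a group in the precipitate tables, and in injured inputs 2 and 3 in the input table. Another 114 columns of per-sample values (FPKM, normalized counts, ratios) were not used.

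From the deposited counts, edgeR 4.0.16 (R 4.3.3) quasi-likelihood tests were fitted over all transcripts of a table, with TMM scaling, its filter on low counts and Benjamini-Hochberg adjustment at 0.05, two-sided. The 6 inputs were fitted alone, the 12 libraries of each antibody together, and those 12 with the inputs for values over input, 19 comparisons in all. A fit that joins deposited lists holds only the transcripts in all of them. Before the filter this left 90 members for nucleolin, 86 for nucleolin with input and 109 for PTBP1 with input. CPM uses the TMM-scaled totals of its fit, so a level differs slightly between fits. Totals of 7536033 to 22919174 counts limit the precision of low transcripts most in injured input 1. The scripts were tested on simulated data. Alternatives were other scalings, no filter, DESeq2 1.42.0, the replicate number as a block, sums per gene, a fit of the compared libraries alone and each library left out. The main design has no block. Same-numbered libraries deviated together, with every correlation over 0.1, in 3 comparisons: PTBP1 IP over blocked IP in injured nerve (0.113, 0.142 and 0.313), nucleolin IP injured against naive (0.332, 0.119 and 0.555) and nucleolin IP over input in injured nerve (0.152, 0.178 and 0.203). Libraries of unlike numbers were not compared, and library 3 stood apart in the precipitates, so pairing was not established. The design text says only that the experiment was repeated.

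Members, roles and lists were chosen with earlier results of these data known. Named members were, per role and comparison, up to 3 called in each direction with the largest fold change, the 5 with the smallest p where under 5 were called, and a fixed list given in input whatever its result; Kif1a, Dctn1, Rab27a and Rab3a of that list were not analysed here in input. Others named, and the 3 further Golgi Rabs, were chosen after their values were seen. The alternatives for members called in the precipitates, the pyrimidine runs and their length classes were added after seeing the data. Promoters come from RefSeq (GRCm38.p6) and transcript sequences from GENCODE (GRCm38).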

Additional observations from a re-analysis of the deposited data

How the results depend on the processing

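In input the count of 41 called members ranged from 29 (scaling to library totals) to 45 (DESeq2, and the replicate block), and from 32 to 45 with single libraries left out, and all 41 kept their sign in each alternative fitted per transcript. The 12 calls ended by scaling to totals were Klc4, Klc1, Kif1b, Kif22, Dynll1 (ENSMUST00000009157), Dync2li1, Rab1b, Rab2a, Rab7b, Rab8b, Rab29 and Rab35, with adjusted p-values of 0.0758 to 0.423. Scaling to totals moved the median of all transcripts from 0.00 to -0.26 in input and by up to 0.59 elsewhere. No called value changed sign in the alternatives run. Elsewhere counts moved. IP over blocked IP gave 0 members in edgeR and 4 (nucleolin, naive), 4 (nucleolin, injured), 8 (PTBP1, naive) and 10 (PTBP1, injured) with DESeq2, 0 to 2 with a library left out for naive nucleolin, and the PTBP1 interaction 7 with DESeq2. Injured against naive gave, for nucleolin IP, 1 member, with 5 (DESeq2), 2 (replicate block), 3 (compared libraries alone) and 0 to 1 with a library left out. Nucleolin blocked IP gave 4, with 21, 8 and 0 in the same order and 0 to 7. PTBP1 IP gave 12 with DESeq2, and PTBP1 blocked IP 23 with DESeq2, 2 with the replicate block and 0 to 1. Nucleolin IP over input in naive nerve gave 4 with DESeq2, 3 with the replicate block, 1 with the compared libraries alone and 0 to 3, and in injured nerve 6, 2, 13 and 0 to 4, with 1 under totals. PTBP1 IP over input in naive nerve gave 0 under DESeq2's size factors, 5 with DESeq2, 0 with the compared libraries alone and 0 to 3, and in injured nerve 7 with DESeq2, 11 with the compared libraries alone, 3 under totals and 0 to 6. Blocked IP over input gave, for naive nucleolin, 3 with DESeq2, 1 with the replicate block and 0 to 6. For injured nucleolin it gave 3 under totals, 4 with DESeq2, 2 with the replicate block and 0 to 8. For naive PTBP1 it gave 17 with DESeq2 and 0 to 11, and for injured PTBP1 1 under totals, 11 with DESeq2 and 0 to 2. These counts are given without the share of all transcripts called in the same fit, except where a background is printed above. Whether the members moved apart from all transcripts was therefore not tested, and neither was the cause of these moves. The block changed no other count of members by over 1.5 times. Where a group was left with 2 libraries, they were assumed to vary like the rest. Low counts limit the retained-intron members and the mitotic kinesins in naive libraries most.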
